A study of Mus musculus with 6 samples.

Results

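The survival genes Bcl2, Bcl2l1, Bcl2l2 and Mcl1 and the effector genes Bax, Bak1 and Bok were examined in mouse acute lymphoblastic leukaemia driven by BCR-ABL1. The leukaemia either had or lacked AID, a cytidine deaminase that acts on antibody genes in activated B cells. Members were every array probe set that the platform annotation assigns to exactly 1 of these 7 symbols. This gave 22 of 45037 probe sets, 19 for the 4 survival genes and 3 for Bak1 and Bok. No probe set was assigned to Bax by this rule, so Bax was not analysed here. The series compared 3 arrays of AID-/- leukaemia cells, which lack AID, with 3 arrays of AID+/+ leukaemia cells, which carry the intact gene. Both groups are labelled Balb/c and both are driven by the fusion kinase BCR-ABL1. No treatment, age or animal number is given in the labels. The titles call the arrays biological replicates without saying whether each came from its own animal, so the p-values reflect the spread among the 6 arrays, which may be technical.

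The BCL2 family controls the mitochondrial route to cell death. BAX and BAK, and in some settings BOK, form pores in membranes, above all in the outer mitochondrial membrane, and so release cytochrome c. BCL2, BCL-XL (from Bcl2l1), BCL-W (from Bcl2l2) and MCL1 hold BAX, BAK and the BH3-only activators in check, while BOK is known for acting largely outside this restraint. In B-cell progenitors MCL1 and BCL-XL are known survival factors, and BCR-ABL1 is known to raise BCL-XL through STAT5.

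Values are log2 expression values after RMA, which corrects background, scales arrays to each other and gives 1 value per probe set. The arrays had medians of 4.85 to 4.87 in AID-/- and 4.88 to 4.90 in AID+/+ leukaemia. The median over the probe set means was 4.89, and a probe set below it is called dim here. The genotype labels were not checked on the arrays. Xist, the RNA of the inactive X chromosome, was at 4.35 to 6.02 in AID-/- arrays and 11.93 to 12.18 in AID+/+ arrays at its brightest probe set, and the Y-linked gene Kdm5d was at 7.62 to 7.74 in AID-/- arrays and 2.42 to 2.68 in AID+/+ arrays. Sex and genotype therefore cannot be told apart in any difference between the groups. Uty, also Y-linked, was at 6.07 to 6.41 in AID-/- and 2.54 to 2.75 in AID+/+ arrays. All 7 measured B-lineage markers lay above the median, and their mean level per array was 11.53 to 11.70 in AID-/- and 11.19 to 11.39 in AID+/+ leukaemia. The mean level of the T-cell, myeloid, erythroid and stromal marker lists was 4.29 to 4.66 in AID-/- and 4.35 to 4.79 in AID+/+ arrays. Of the 7 B-lineage markers 1 passed the test, Blnk, higher in AID-/- leukaemia by 2.09 (SE 0.12, limma adjusted p = 2.19e-05). Of the 20 other markers 1 passed, Lyz2, higher by 0.76 (SE 0.21, limma adjusted p = 0.0463), a call that among the fits lacking an array held only without AID-/- replicate 3. The call on Lyz2 was also lost in an ordinary linear model. The part of these markers in the results was not tested. These are bulk samples, so fewer cells with a transcript and less RNA per cell cannot be told apart.

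Most survival and effector transcripts did not pass the test between AID-/- and AID+/+ leukaemia, and those that passed went in opposite directions. Bcl2l2 was 2.29-fold lower in AID-/- leukaemia at its brightest probe set, and Bok was 1.52-fold higher. An adjusted p under 0.05 was reached by 2 of the 22 probe sets, 1 in each direction, and missed by the other 20 in limma's moderated test over all probe sets. That is 9.09%, against 14.6% of all probe sets called in either direction, 7.24% called higher and 7.39% called lower. Among probe sets above the median, 2 of 18 members were called, against 24.3% of all such probe sets. Of the dim ones 0 of 4 were called, against 4.98% of all dim probe sets, while 2 of these 4 had an unadjusted p under 0.05 and 0 were called by an ordinary linear model. The groups of arrays did not overlap at 6 of 22 member probe sets, while this held for 32.9% of all probe sets. The median difference of the 22 was -0.07, against -0.04 over all probe sets. At the brightest probe set of each gene 2 of 6 were called, against 17.1% of all genes. All 6 lay above the median, where 24.3% of all probe sets were called. Over all 22 probe sets the share of calls was no higher than the background.

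**Figure D1:**
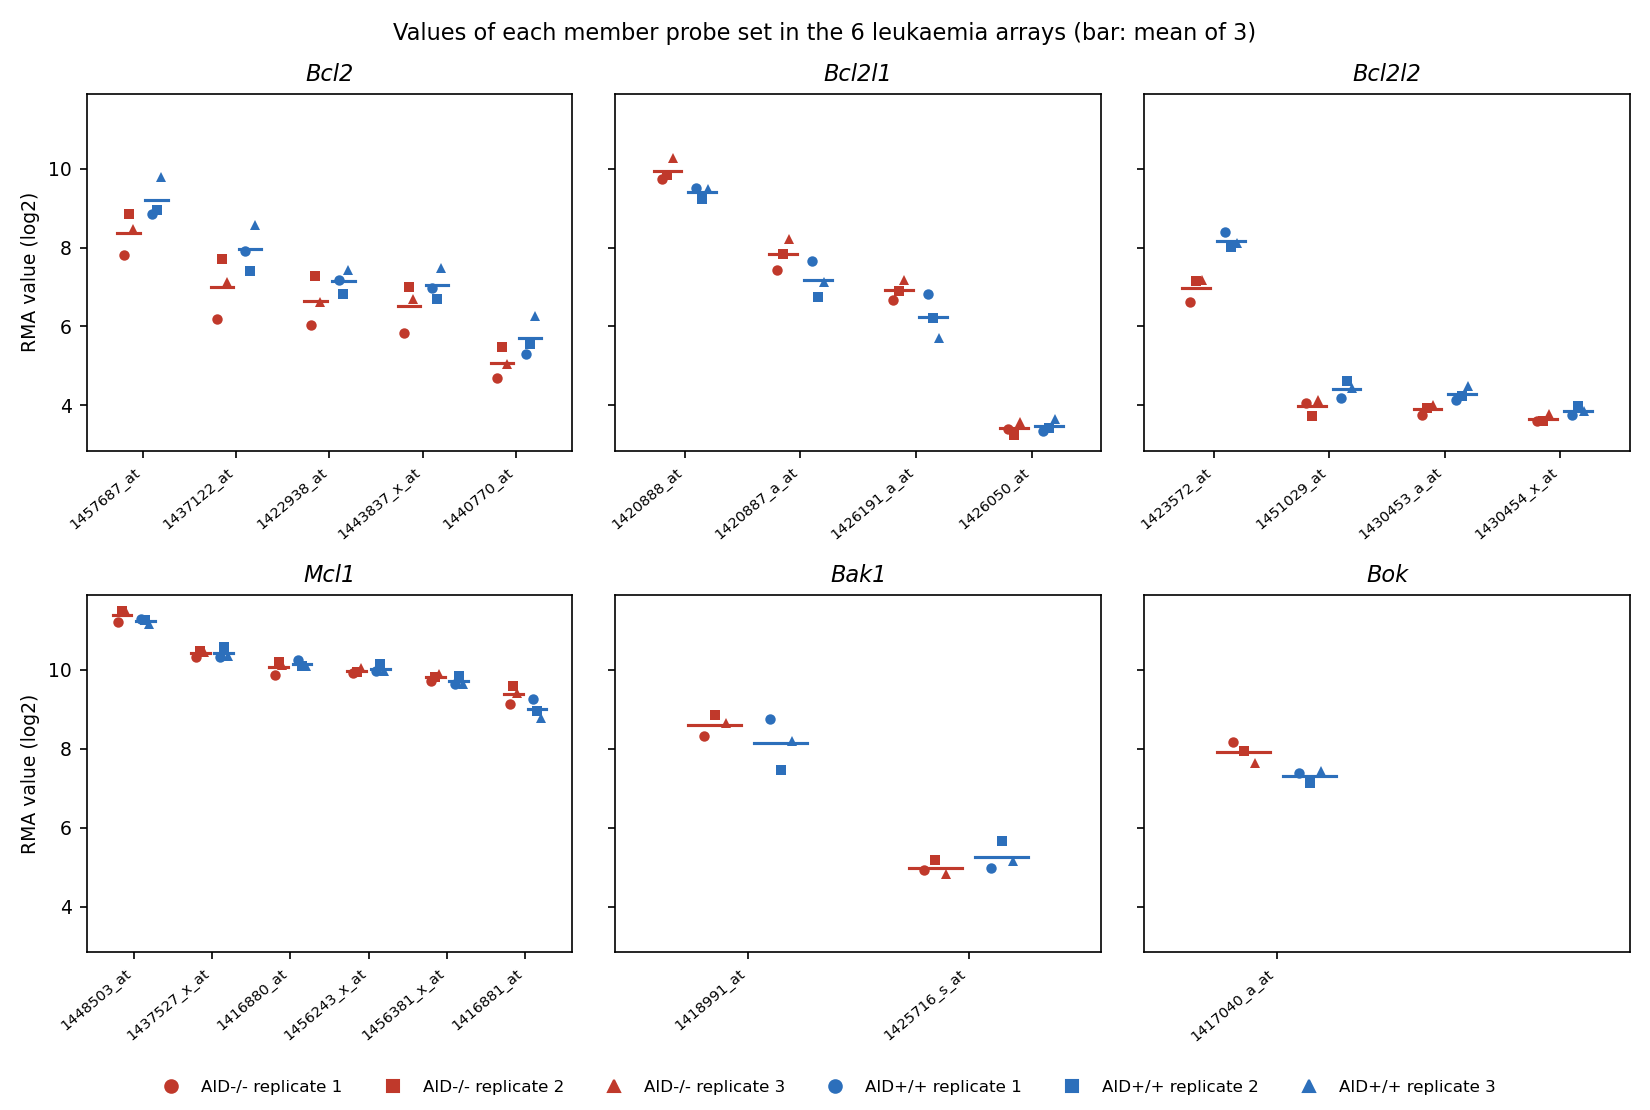
Log2 RMA values of the 22 member probe sets (x axis, brightest first) in each array, with 1 panel per gene; red marks AID-/- and blue AID+/+ arrays, symbols mark replicates and bars the mean of 3. At the first Bcl2l2 probe set AID-/- arrays lay at 6.63 to 7.17 and AID+/+ arrays at 8.02 to 8.40, whereas the groups overlapped at all 6 Mcl1 probe sets.

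The annotated start regions of the 2 genes with a call are shown. Which transcripts the called probe sets read was not examined. Each region runs from 250 bases before to 50 after the annotated start, on the plus strand of GRCm38.p6, from RefSeq. Capitals mark matches to the GC box GGGCGG on either strand, a sequence bound by SP1-type factors. Bcl2l2 starts on chromosome 14, at chr14:54883175-54883474, and Bok on chromosome 1, at chr1:93685325-93685624.
Bcl2l2: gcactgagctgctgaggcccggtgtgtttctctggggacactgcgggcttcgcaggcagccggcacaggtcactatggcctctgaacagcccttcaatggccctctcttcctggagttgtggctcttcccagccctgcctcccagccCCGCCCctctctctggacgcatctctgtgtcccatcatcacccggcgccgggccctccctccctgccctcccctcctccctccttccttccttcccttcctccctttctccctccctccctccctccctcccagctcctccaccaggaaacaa
Bok: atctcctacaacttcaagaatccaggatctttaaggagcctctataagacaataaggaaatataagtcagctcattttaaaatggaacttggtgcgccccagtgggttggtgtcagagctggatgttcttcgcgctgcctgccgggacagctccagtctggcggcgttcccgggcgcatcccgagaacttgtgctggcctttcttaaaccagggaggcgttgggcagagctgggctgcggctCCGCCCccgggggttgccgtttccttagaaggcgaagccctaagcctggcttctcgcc

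Each of these windows held 1 GC box, and its part in the differences was not tested. A GC box was present in 5 of the 9 windows of the 7 genes, those of Bcl2, Bcl2l2, Mcl1, Bax and Bok, and in 35.7% of the 32851 mouse promoter windows of the same length. The STAT motif TTCNNNGAA, which reads the same on both strands, was in 0 of the 9 windows, 3 of which belong to Bcl2l1, and in 8.3% of all windows. A match is only a description, and the absence of one says no more than that these letters are not in the window.

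Bcl2l2, which encodes BCL-W, was the member with a call on the survival side. Its brightest probe set, 1423572_at, read 6.63, 7.14 and 7.17 in AID-/- arrays, against 8.40, 8.02 and 8.11 in AID+/+ arrays. Every AID-/- array lay below every AID+/+ array. The mean was 6.98 ± 0.30 for AID-/- arrays and 8.17 ± 0.20 for AID+/+ arrays (SD, n = 3 each), a difference of -1.20 (SE 0.17, limma adjusted p = 0.00225). The call held with any 1 array left out, with differences of -1.29 to -1.02 and an adjusted p of at most 0.0119. An ordinary linear model without variance moderation did not call it (adjusted p = 0.0629).

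The 3 other Bcl2l2 probe sets were dim, with means of 3.77 to 4.19 over all arrays, and their differences were smaller, at -0.44 to -0.21. None of the 3 passed limma's test, with adjusted p of 0.0690 to 0.245 and 2 of them at an unadjusted p under 0.05. A test of the inequality itself compared each probe set with the brightest one of its gene on the same array. In this comparison the difference at 1430454_x_at was less negative than at the brightest Bcl2l2 probe set by 0.99 (SE 0.19, limma adjusted p = 0.0102), and that at 1430453_a_at by 0.81 (SE 0.18, adjusted p = 0.0223). Low signal may compress a change at dim probe sets, which was not tested. These gaps therefore do not separate unequal transcripts from low signal. For 1451029_at the gap was 0.75 (SE 0.24, adjusted p = 0.0880). Over all genes with several probe sets, 10.9% of 16752 such differences passed. Leaving out AID-/- replicate 1, AID+/+ replicate 1 or AID+/+ replicate 2 ended the call on 1430453_a_at (adjusted p up to 0.0662). With the probe sets of Bcl2l2 averaged, the gene's difference was -0.56 (SE 0.09, limma adjusted p = 0.00452 over 18193 genes).

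Bcl2l1, which encodes BCL-XL, lay at the edge of the threshold. At its brightest probe set, 1420888_at, the values were 9.74, 9.83 and 10.27 in AID-/- arrays, against 9.52, 9.22 and 9.48 in AID+/+ arrays. All AID-/- arrays lay above all AID+/+ arrays. The difference was 0.54 (SE 0.15, 95% interval 0.19 to 0.89), or 1.45-fold, with a limma adjusted p of 0.0511. Adjusted over 1 probe set per gene in place of all probe sets, the same test gave 0.0437. The call was also made after leaving out dim probe sets, with an intensity trend, median centring or array weights, or without AID-/- replicate 1. Adjusted p ranged from 0.0295 to 0.199 over 13 alternatives. With the probe sets of Bcl2l1 averaged, the gene's difference was 0.45 and did not pass (SE 0.16, limma adjusted p = 0.0916 over 18193 genes).

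The next Bcl2l1 probe sets, 1420887_a_at and 1426191_a_at, differed by 0.66 (SE 0.26) and 0.67 (SE 0.26) with overlapping groups, and limma gave adjusted p of 0.136 and 0.131. Both overlapped through AID+/+ replicate 1, which read 7.65 and 6.82 at them. Without that array, 1426191_a_at differed by 0.95 and passed (adjusted p = 0.0265). The fourth, 1426050_at, was dim at 3.26 to 3.59 in AID-/- and 3.35 to 3.66 in AID+/+ arrays and differed by -0.06 (SE 0.12, limma adjusted p = 0.830). Low signal may compress a change at this dim probe set too, which was not tested. Its difference departed from that of the brightest Bcl2l1 probe set by -0.59 (SE 0.15, limma adjusted p = 0.0356). That call ended when replicate 2 or 3 of either group was left out (highest adjusted p 0.125). Parts of Cox4i2 and of the pseudogene Gm32211 overlap Bcl2l1 in RefSeq.

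Bcl2, the founding survival gene, had lower means in AID-/- leukaemia at all 5 probe sets, but none passed. At the brightest, 1457687_at, AID-/- arrays read 7.80, 8.84 and 8.46 and AID+/+ arrays 8.86, 8.95 and 9.79. The groups just failed to overlap there, with AID-/- replicate 2 next to AID+/+ replicate 1, and they overlapped at the other 4 probe sets. The difference at 1457687_at was -0.84 (SE 0.31, 95% interval -1.54 to -0.14, limma adjusted p = 0.113). Differences at the others ran from -0.97 to -0.49, with adjusted p of 0.160 to 0.329. Of the 5 probe sets 3 had an unadjusted p under 0.05, and 0 were called by the ordinary linear model.

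The arrays within each group were spread widely for Bcl2. AID-/- replicate 1 was the lowest of the 6 arrays at all 5 probe sets, and AID+/+ replicate 3 was the highest at all 5. The within-group spread of the 5 probe sets ranked at the 97.9th to 99.4th percentile of all probe sets. None of the other Bcl2 probe sets passed the test against the brightest one (limma adjusted p of 0.249 to 0.767, with 0 of 4 called). The gaps ran from -0.13 (SE 0.19) to 0.35 (SE 0.18), and not passing does not show that the differences were equal. Without AID-/- replicate 1 the difference at 1457687_at was -0.56, and without AID+/+ replicate 3 it was -0.54. Without AID-/- replicate 2 it was -1.08 (adjusted p = 0.0553), and 1422938_at then passed at -0.81 (adjusted p = 0.0482).

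Mcl1, whose short-lived product is a main survival factor of lymphoid progenitors, was high in both groups and close between them. Its brightest probe set, 1448503_at, read 11.20, 11.49 and 11.46 in AID-/- arrays, against 11.28, 11.26 and 11.15 in AID+/+ arrays. The groups overlapped here and at each of the other 5 probe sets. The difference was 0.15 (SE 0.11, limma adjusted p = 0.424), with a 95% interval of -0.09 to 0.40. Across the 6 Mcl1 probe sets the differences ran from -0.08 to 0.37. The largest, at 1416881_at, had an interval of 0.03 to 0.72 and did not pass (SE 0.15, limma adjusted p = 0.149). Changes of 1 log2 unit lay outside all 6 intervals. The _x_at probe sets, 3 of the 6, may contain probes shared with other transcripts, and they differed by 0.01, -0.06 and 0.11.

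**Figure D2:**
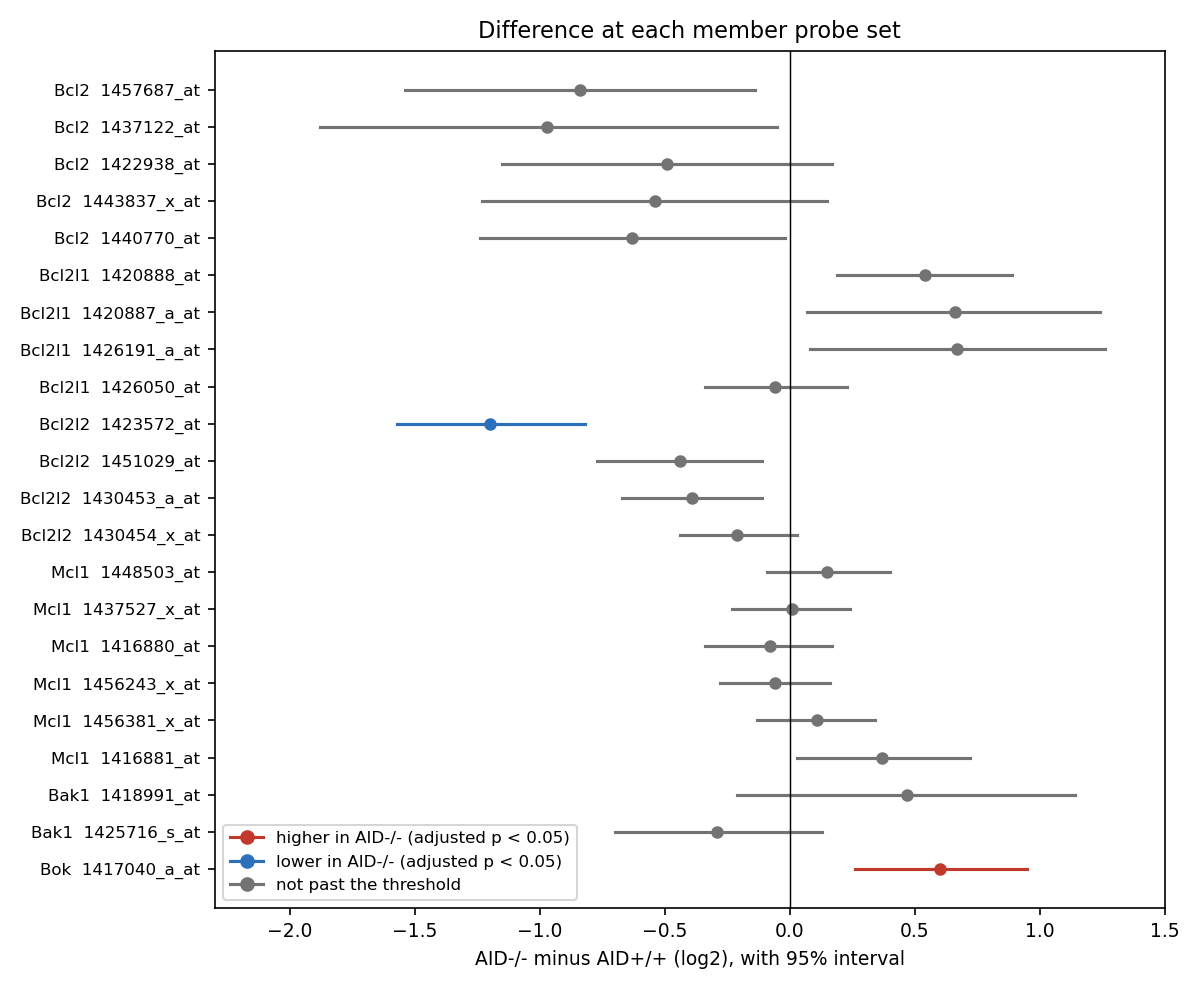
Difference between AID-/- and AID+/+ leukaemia (x axis, log2, AID-/- minus AID+/+) at each member probe set, with points for the estimate and lines for the 95% interval of the moderated fit; colours mark calls at an adjusted p of 0.05. The brightest Bcl2l2 probe set (-1.20) and Bok (0.60) were called, and the intervals of the 5 Bcl2 probe sets were among the widest.

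On the effector side, Bok was measured by 1 probe set, 1417040_a_at. It read 8.18, 7.94 and 7.64 in AID-/- arrays, against 7.38, 7.13 and 7.44 in AID+/+ arrays. Every AID-/- array lay above every AID+/+ array. Its mean was 7.92 ± 0.27 for AID-/- arrays and 7.32 ± 0.16 for AID+/+ arrays (SD, n = 3 each), a difference of 0.60 (SE 0.15, limma adjusted p = 0.0313). It was lost without AID-/- replicate 1 or 2 or any single AID+/+ array, 5 of the 6 fits with 1 array left out, at an adjusted p of up to 0.105, and in the ordinary linear model (adjusted p = 0.161). The difference stayed between 0.47 and 0.74 in these fits.

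Bak1, which encodes the effector BAK, did not pass at either of its probe sets. At 1418991_at it read 8.32, 8.85 and 8.65 in AID-/- arrays, against 8.76, 7.46 and 8.21 in AID+/+ arrays. AID+/+ replicate 2 was the lowest array and AID+/+ replicate 1 lay within the AID-/- range. The difference was 0.47 (SE 0.29, limma adjusted p = 0.366), and it was 0.12 without AID+/+ replicate 2 and 0.78 without AID+/+ replicate 1. The second probe set, 1425716_s_at, went the other way by -0.29 (SE 0.18, limma adjusted p = 0.366), and the inequality between the 2 probe sets did not pass (adjusted p = 0.319). At this one AID+/+ replicate 2 was the highest array, at 5.66. Bak1 lies inside the span of Ggnbp1 in RefSeq, and an _s_at probe set may be shared by related transcripts, so neither value is certain to be Bak1 alone. At an unadjusted p under 0.05, 0 of the 2 were found.

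**Figure D3:**
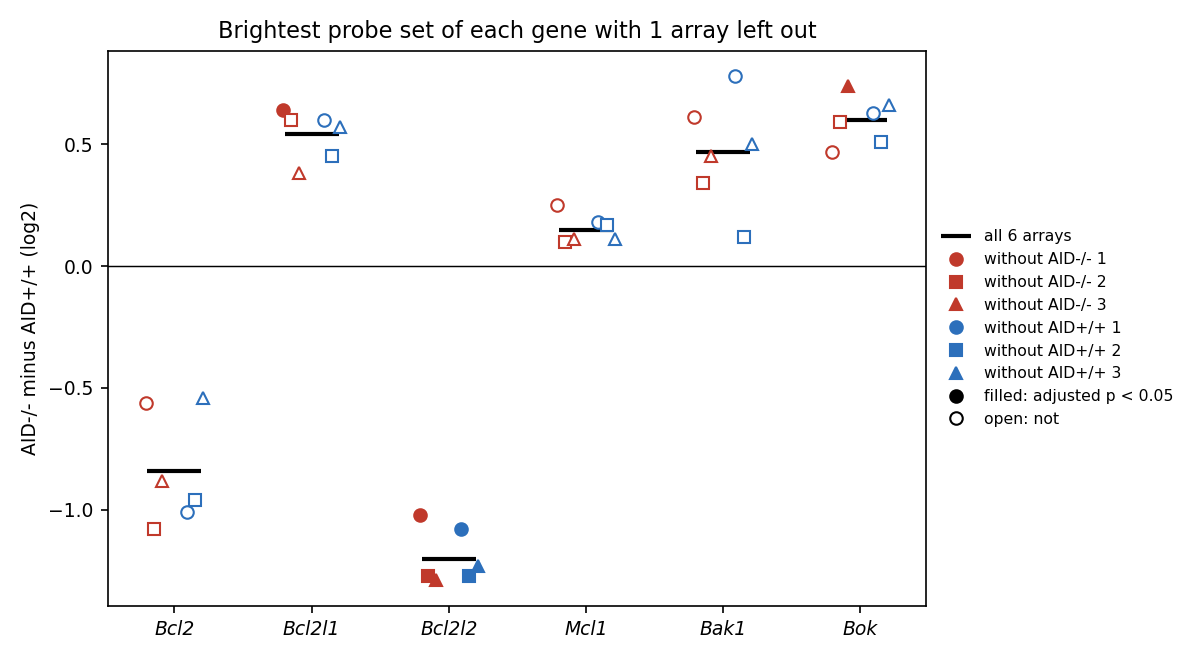
Difference (y axis, log2, AID-/- minus AID+/+) at the brightest probe set of each gene with all 6 arrays (bar) and with 1 array left out (symbols, coloured by the group of the array left out; filled where the adjusted p was under 0.05). Bcl2l2 was called in all 6 fits, Bok in 1 and Bcl2l1 in 1, and the value of Bak1 ran from 0.12 to 0.78.

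The expression pattern of the 2 called genes was compared over the 6 arrays with 10787 other genes whose brightest probe set lay above the median. Bcl2l2 resembled Prelid2 (Pearson's r = 0.9951) and Paics (r = 0.9945) most closely, and 388 genes reached an r of 0.95. Bok resembled Lif (r = 0.9944) and Setd3 (r = 0.9943), and 42 genes reached 0.95. These values describe 6 arrays in which the groups themselves differ, and of the 4 genes Prelid2 alone passed limma's test (difference -0.61, adjusted p = 0.00525).

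Other genes of the mitochondrial death pathway were taken from 8 lists, with each gene at its brightest probe set. Calls were made on 12 of the 47 genes measured among 55 listed, 8 of them higher and 4 lower. That is 25.5%, against 17.1% over the full set of 18193 genes (9.49% called higher, 7.66% called lower). Every list had most of its measured genes above the median, where 24.3% of all probe sets were called, against 4.98% of dim ones. The pathway share was thus close to the background at this brightness. The median difference of the 47 genes was 0.07, against -0.03 over all genes. By list the median was -0.16 for other BCL2-fold genes, 0.43 for BH3-only genes, 0.18 for MCL1 turnover and 0.08 for membrane partners. It was 0.27 for released mitochondrial factors, 0.23 for apoptosome and caspase genes, -0.01 for inhibitors of apoptosis and -0.17 for transcription factors.

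The BH3-only genes, whose products bind the survival proteins, held 4 higher and 0 lower members of 8. Pmaip1, which encodes NOXA, an antagonist of MCL1, was higher by 1.68 (SE 0.15, limma adjusted p = 0.000284), and Bid, Bmf and Bcl2l11, which encodes BIM, were higher by 0.75 (SE 0.12), 0.80 (SE 0.17) and 0.73 (SE 0.18). All 3 probe sets of Bid, 4 of the 5 of Bcl2l11 and 1 of the 3 of Bmf were called higher. The call on Bcl2l11 ended with 1 array left out in 4 of 6 fits (highest adjusted p 0.0767), those lacking replicates 2 or 3 of AID-/- or replicates 1 or 2 of AID+/+ leukaemia. The call on Bmf ended when AID+/+ replicate 1 or 2 was missing (highest 0.0538). That on Bid held with any 1 array left out (adjusted p up to 0.0248). In the ordinary linear model the calls on Bid (adjusted p = 0.0653), Bmf (0.126) and Bcl2l11 ended, while that on Pmaip1 held. Among the genes not called at their brightest probe set, Bad differed by 0.13 (SE 0.09) and Bbc3, which encodes PUMA, by 0.13 (SE 0.16). Of the 2 probe sets for Bad, 1 was called higher. Of the other BCL2-fold genes, Bcl2l12 was lower, with a difference of -0.55 (SE 0.10, limma adjusted p = 0.00964) at 1 of its 2 probe sets. Its call also ended in the ordinary linear model (adjusted p = 0.0628). The remaining 4 of 5 measured genes did not pass, Bcl2l13 at -0.11 (SE 0.09) and Bcl2l15 at 0.04 (SE 0.16) among them.

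Downstream of the mitochondrion, 2 of 4 measured apoptosome and caspase genes were higher. Casp6, an executioner caspase gene, read 7.53, 7.99 and 8.05 in AID-/- arrays, against 5.98, 6.16 and 6.13 in AID+/+ arrays. All AID-/- arrays lay far above the AID+/+ arrays, and the difference was 1.76 (SE 0.14, limma adjusted p = 0.000160) at 1 of its 2 probe sets. Casp9, the initiator of the apoptosome, was higher by 0.43 (SE 0.09, limma adjusted p = 0.0143) at its brightest probe set, and all 3 of its probe sets were called higher. The call at the brightest one ended without AID+/+ replicate 1 (adjusted p = 0.0503). Apaf1, its scaffold, and Casp2 differed by 0.04 (SE 0.11) and -0.02 (SE 0.09). Of the 5 factors released from mitochondria 1 was higher: Cycs, which encodes cytochrome c, by 0.34 (SE 0.09, limma adjusted p = 0.0403), a call lost whichever array was left out (up to 0.116). Aifm1 and Htra2 of this list differed by 0.27 (SE 0.10) and -0.22 (SE 0.10) without passing. None of the 5 inhibitor of apoptosis genes passed limma's test, 0 had an unadjusted p under 0.05, and 0 were called by the ordinary linear model. Xiap and Birc5 of this list differed by -0.15 (SE 0.09) and 0.03 (SE 0.12).

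**Figure D4:**
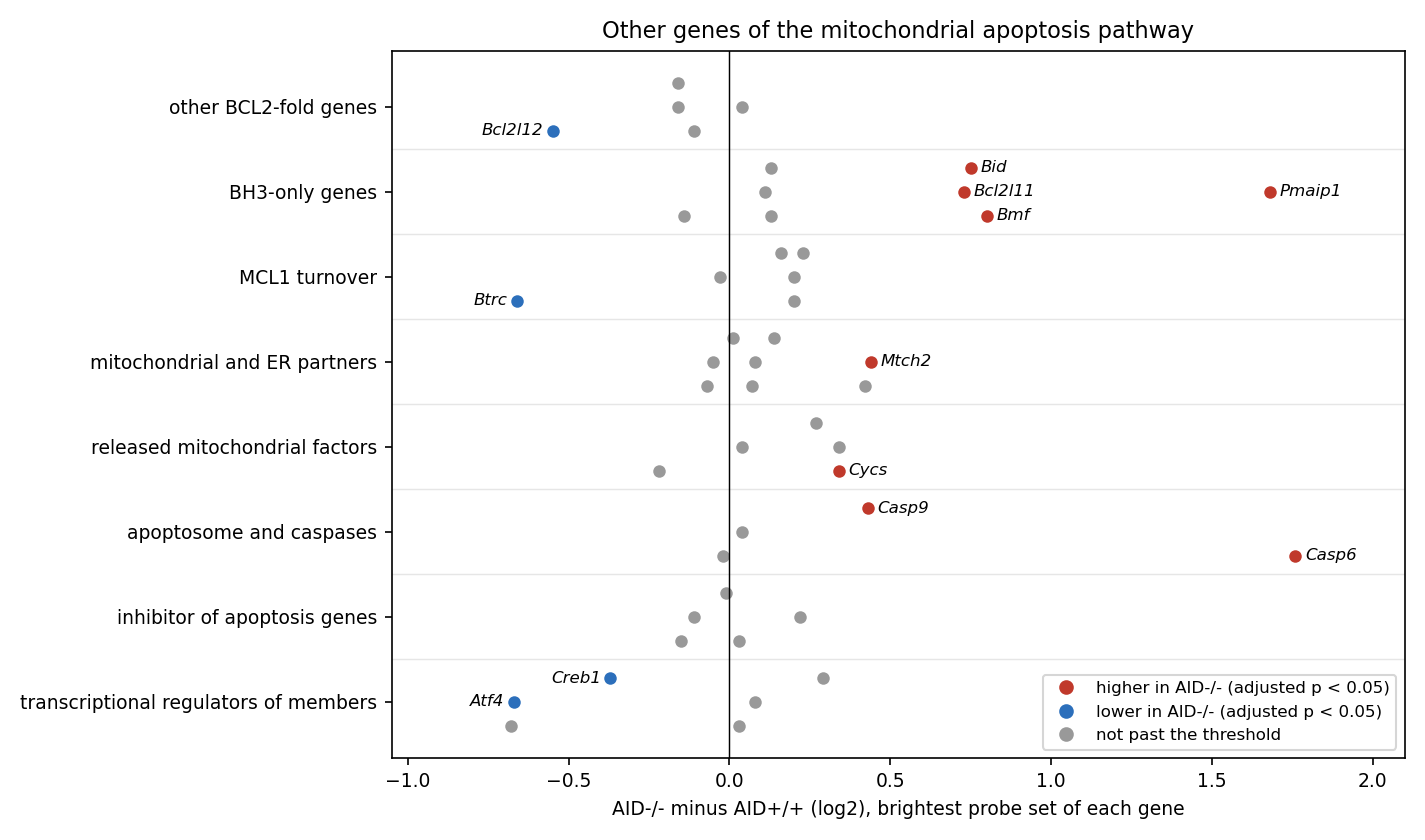
Difference (x axis, log2, AID-/- minus AID+/+) for each measured gene of 8 pathway lists (rows) at its brightest probe set; red points were called higher, blue points lower, and grey points did not pass an adjusted p of 0.05. Pmaip1 (1.68) and Casp6 (1.76) lie farthest to the right, and the inhibitor of apoptosis genes hold no coloured point.

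Among genes that act on MCL1 stability, 1 of 6 was lower and 5 did not pass. Btrc, which encodes a substrate receptor of a ubiquitin ligase, had a difference of -0.66 (SE 0.15, limma adjusted p = 0.0208) with 3 of its 5 probe sets lower, and the call ended (highest adjusted p 0.0716) when replicate 3 of either group or AID-/- replicate 1 was missing. Marchf5 and Huwe1, which encode ubiquitin ligases, differed by 0.23 (SE 0.10) and 0.20 (SE 0.10) without passing at their brightest probe set, while 1 of the 5 Huwe1 probe sets was called higher. Of 8 measured partner genes of the mitochondrion and the endoplasmic reticulum, Mtch2, the receptor of BID at mitochondria, was higher by 0.44 (SE 0.09, limma adjusted p = 0.0157), but of its 7 probe sets 2 were higher and 1 was lower. That call ended (highest adjusted p 0.0552) when replicate 3 of either group, AID-/- replicate 2 or AID+/+ replicate 1 was missing. In the ordinary linear model the calls on Btrc and Mtch2 ended too. Vdac2, a channel that binds BAK, and Vdac3 differed by 0.14 (SE 0.08) and -0.05 (SE 0.09).

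Of 6 measured transcription factors known to act on the members, 2 were lower and 4 did not pass. Atf4, a stress-response factor, had a difference of -0.67 (SE 0.10, limma adjusted p = 0.00267) at 1 of its 3 probe sets. Creb1 had a difference of -0.37 (SE 0.09, limma adjusted p = 0.0271), with 2 of its 6 probe sets lower and 1 higher. That call held only without AID-/- replicate 1 among the 6 fits with 1 array left out (adjusted p up to 0.0920). It also ended in the ordinary linear model. Myc and Rela differed by -0.68 (SE 0.20, adjusted p = 0.0614) and 0.03 (SE 0.10). Stat5a and Stat5b, the link from BCR-ABL1 to Bcl2l1, differed by 0.29 (SE 0.09, limma adjusted p = 0.0740) and 0.08 (SE 0.12), and neither passed.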

How the data were processed

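The deposited table holds log2 expression values of 45101 probe sets in 6 arrays. RMA and Partek are the tools listed in the submitters' processing notes, with no version and no stated order. Per the labels' protocols, biotinylated cRNA was made from total RNA. The genome build is not given in the sources used here. Array controls (64) were left out. Gene symbols follow RefSeq (GRCm38.p6), matched through Entrez identifiers. No detection calls were used, and the number of arrays limits the precision.

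The test was limma's (version 3.58.1, R 4.3.3) on all 45037 probe sets, using lmFit then eBayes with genotype as the sole term, two-sided, with Benjamini-Hochberg adjustment over all of them and a threshold of 0.05. Differences are AID-/- minus AID+/+ with the moderated standard error (SE) and a 95% interval. Each listed gene stands at its brightest probe set, judged by the mean of the 6 arrays. A second fit tested, for 16752 probe sets, the per-array difference from the brightest probe set of the gene. Both fits were tested on simulated data before use.

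The members, lists and tests were chosen with earlier results of these data known. Named were all members, up to 4 called genes per list and direction, up to 2 genes per list that were not called, and 2 genes most like each member whose brightest probe set was called. Xist, Kdm5d and Uty served as checks. Stat5a, Stat5b, Blnk and Lyz2 were named outside this rule, after their values were seen. Deviations from the group means correlated at -0.05, -0.07 and 0.03 between arrays with the same replicate number. The titles state no pairing, so these arrays were not treated as pairs, though the correlations do not exclude pairing. Alternatives were other scalings, a filter on dim probe sets, other moderation, array weights, a replicate block, other thresholds, averaged probe sets and leaving out each array.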

Additional observations from a re-analysis of the deposited data

How the results depend on the processing

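No called member difference changed sign under any alternative run. Of 288 member differences recomputed, 273 kept their side of the threshold, 7 lost and 8 gained a call. Most of the 288 were of probe sets without a call, which had none to lose. The 7 losses fell on the 2 called probe sets, in 1 of 13 alternatives at Bcl2l2 and in 6 of 13 at Bok. Member probe sets called higher numbered 2, against 1 as reported, after leaving out dim probe sets or with median centring, an intensity trend or array weights. Without moderation 0 were higher and 0 lower. At a threshold of 0.01, 0 were higher, and at 0.10 there were 2 higher and 3 lower. Leaving out 1 array gave 0 to 1 higher (0 without replicate 2 of either group or AID+/+ replicate 3) and 1 to 2 lower (2 without AID-/- replicate 2). The probe set called higher was that of Bok only without AID-/- replicate 3. Without replicate 1 of either group it was a Bcl2l1 probe set. Of all probe sets, 1209 were higher and 1154 lower without moderation, and 2091 to 3198 higher calls and 2216 to 2911 lower calls were made after removal of an array, fewest without AID+/+ replicate 3. Pathway genes called were 3 higher and 1 lower without moderation, 2 lower with probe sets averaged, and 3 to 7 higher (3 without AID+/+ replicate 1, 5 without replicate 2 of either group) and 2 to 4 lower (2 without replicate 3 of either group) after removal of an array. Probe sets unlike the brightest of their gene numbered 444 without moderation and 1076 to 1612 after removal of an array, against 1825 as reported, and among members 0 and 1 to 3, against 3. Without moderation the spread of each probe set rests on its own 6 arrays. The cause of the other shifts was not tested. With the replicate block 1 member probe set was higher and 1 lower, as without it, while 2723 of all probe sets were higher and 2646 lower. Pathway genes were then 6 higher and 3 lower, and the calls on Bcl2l11, Cycs and Creb1 were lost. The titles do not say whether the numbers mark pairs. Low signal may compress a change at the dim probe sets of Bcl2l1 and Bcl2l2, which was not tested.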
